A study of Caenorhabditis elegans with 8 samples.

Results

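The 8 large chaperones described here were *hsp-1*, *hsp-110*, *daf-21* and *hsp-70* of the cytosol, *hsp-3* and *hsp-4* of the endoplasmic reticulum (ER), and *hsp-6* and *hsp-60* of the mitochondrion. They were chosen by gene name, whatever their values, from 18877 genes on a *C. elegans* oligonucleotide array. The files list *hsp-110* by its sequence name, C30C11.4, and the reference annotation calls *daf-21* *hsp-90*. Each of the 8 had 1 probe, and this probe was well above background in both channels on all 8 arrays. Raw signals in the strain channel were low for *hsp-6*, at 453.5 to 721.4, and on some arrays for *hsp-70*, at 437.6 to 1740. The medians of all gene spots in that channel ran from 462.1 to 575.1 over the arrays.

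Chaperones bind unfolded proteins and use ATP to help them fold, and each compartment of the cell has its own set. HSP70 proteins hold exposed hydrophobic stretches, HSP110 proteins exchange their nucleotide, HSP90 acts late in the folding of kinases and receptors, and HSP60 forms a closed chamber. In *C. elegans* the heat shock factor HSF-1 drives cytosolic chaperone genes, XBP-1 drives those of the ER, ATFS-1 drives those of mitochondria, and insulin-like signaling through AGE-1, a phosphoinositide 3-kinase, restrains DAF-16, which acts with HSF-1 at several heat shock genes.

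Animals were late L4 larvae or young adult hermaphrodites, grown for 72 h at 20°C after release from L1 arrest. The mutant *age-1(mg44)* was homozygous but came from heterozygous mothers, so it had maternal and no zygotic *age-1* (2 arrays). CY262 carried the same *age-1(mg44)* allele and the transgene *bvIs1*, which restricts *age-1* expression to the intestine (3 arrays), and CY251 carried it with *bvIs2*, which restricts *age-1* expression to neurons (3 arrays). Each restored strain is a single transgenic line, and the strains carry the marker *sqt-1(sc13)*, which wildtype N2 does not. On each array the strain was labelled with Cy3 and wildtype N2 with Cy5, with no dye swap. A value below is a log2 ratio of strain over wildtype unless it is called a channel level, so -1 is a halving, and errors are standard errors (SE) of limma unless called SD.

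Several facts of the whole series bear on these values. The methods count 3 N2 replicates for the 8 wildtype channels and give the wildtype as of similar or slightly later stage. They describe the replicates as biological without saying how cultures were kept apart, and the p-values take the arrays as independent. Unequal dye response of a probe cannot be told apart from a difference from wildtype, whereas between strains it cancels. The deposited records also assign 4 of the arrays, replicates 2 and 3 of CY262 and CY251, in more than one way, and the names used here are those of the sample records. The median of 30 sperm genes was 6.29 in *age-1(mg44)*, while CY262 had 6.06 and CY251 had 6.44 (26, 28 and 28 called higher), and that of 12 oocyte and early embryo genes was -1.67, -1.33 and -1.43 in the same order (8, 10 and 9 called lower). Intestinal genes stood at medians of 1.1, 1.4 and 1.35, and those of body wall muscle at 0.72, 1.92 and 2.16. The part of stage and tissue in the chaperone values was not tested, and in whole animals fewer cells of a type and less RNA per cell cannot be told apart.

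Against wildtype, 3 of the 8 chaperones were called in each strain, each of them lower (limma, adjusted p under 0.05). In *age-1(mg44)* these were *hsp-110*, *hsp-4* and, from a single array, *hsp-1*, where 19.7% of all genes were called and 8.01% were called lower. In CY262 they were *hsp-1*, *daf-21* and *hsp-4*, beside 32.5% of all genes called and 14.3% called lower. The same genes were called in CY251, beside 31% of all genes called and 12.7% called lower. The 8 had a median ratio of -0.61 in *age-1(mg44)* (all genes, -0.01), -0.20 in CY262 (all genes, -0.01) and -0.52 in CY251 (all genes, -0.01). No chaperone was called higher in any strain. The plot of the ratios by array shows how far single arrays set these values.

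**Figure D1:**
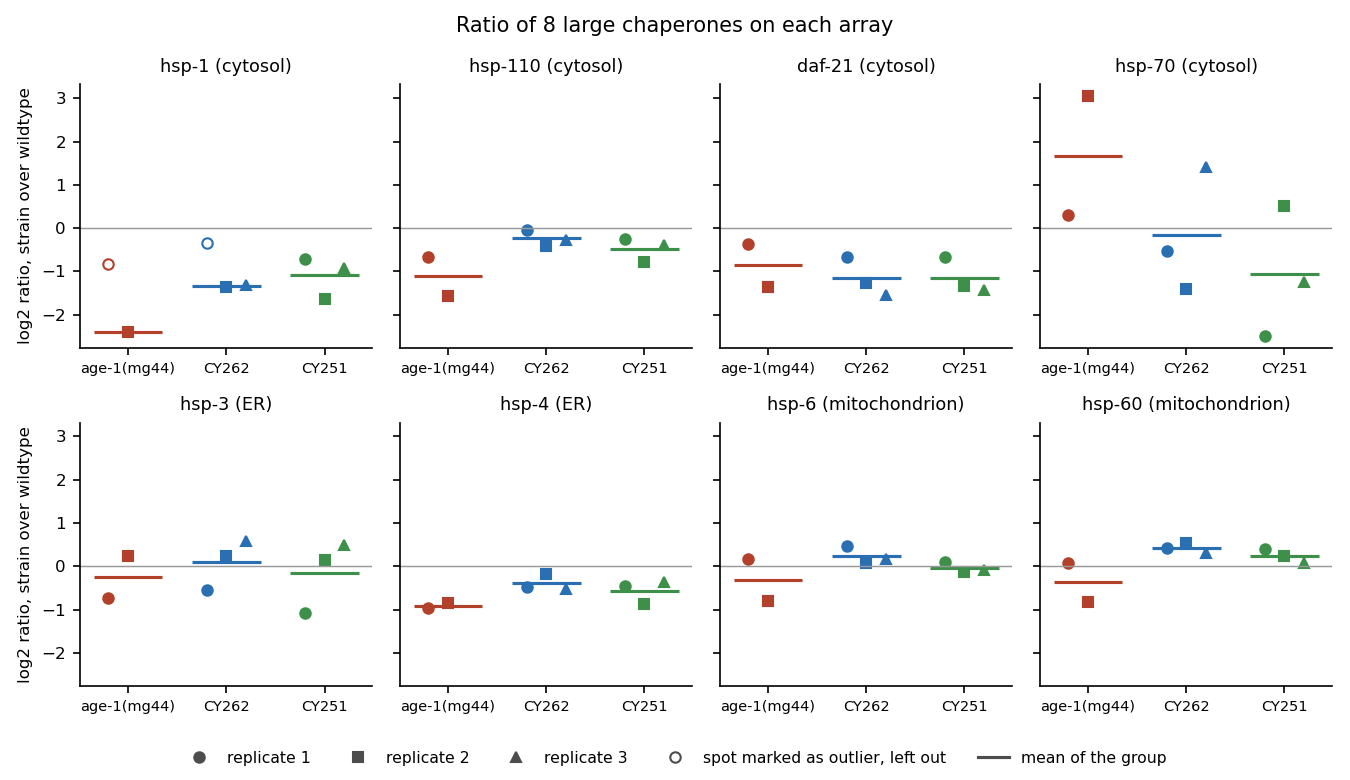
Log2 ratio of strain over wildtype (vertical axis) of each chaperone on each of the 8 arrays, by strain, with the replicate number as the marker and the group mean as a line. Every point of *hsp-1*, *hsp-110*, *daf-21* and *hsp-4* lies below 0, whereas *hsp-70* runs from -2.48 to 3.04. Open markers are the 2 *hsp-1* spots that the scanner software marked as outliers.

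*hsp-1*, the constitutive cytosolic HSP70, was lower than wildtype wherever it was measured. Its ratio was -2.39 on the one usable *age-1(mg44)* array, -1.35 and -1.30 on 2 CY262 arrays, and -0.72, -1.63 and -0.92 on the CY251 arrays. The fit gave -2.39 ± 0.331 in *age-1(mg44)*, a 5.25-fold lower level (adjusted p = 0.0149, limma, n = 1), -1.33 ± 0.234 in CY262 (adjusted p = 0.017, n = 2) and -1.09 ± 0.191 in CY251 (adjusted p = 0.0158, n = 3). The lone *age-1(mg44)* value has no replicate of its own, and its error and p assume that it varies like the CY262 and CY251 arrays. The spots of *age-1(mg44)* replicate 1 and CY262 replicate 1 were marked as not uniform in the strain channel and left out, and with them kept their ratios were -0.82 and -0.34, the smallest of their groups. With these spots the value in *age-1(mg44)* was -1.61 ± 0.426 (adjusted p = 0.0436, limma), and the calls ended in CY262 (-0.997 ± 0.348, adjusted p = 0.069) and CY251 (-1.09 ± 0.348, adjusted p = 0.0554).

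*daf-21* encodes the cytosolic HSP90. Its ratio was -0.36 and -1.36 on the *age-1(mg44)* arrays, -0.67, -1.26 and -1.54 on the CY262 arrays, and -0.67, -1.34 and -1.43 on the CY251 arrays. In every strain the replicate 1 array was nearest to 0. *daf-21* fell in CY262 (-1.16 ± 0.253, a 2.23-fold lower level, adjusted p = 0.0164) and in CY251 (-1.15 ± 0.253, adjusted p = 0.0161, limma, n = 3 each). Its value in *age-1(mg44)* was -0.86 ± 0.31 (adjusted p = 0.102, limma, n = 2). This result depended on the model. With the replicate number as a block the value was -1.03 and was called (adjusted p = 0.00736, limma), beside 30.4% of all genes. The wildtype spot was saturated on *age-1(mg44)* replicate 2, CY262 replicates 2 and 3 and CY251 replicate 2, and that of *hsp-1* on CY251 replicate 2, so the ratios of those arrays are nearer to 0 than an unsaturated spot would give.

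*hsp-110*, the nucleotide exchange partner of HSP70, had ratios of -0.66 and -1.56 on the *age-1(mg44)* arrays, -0.04, -0.41 and -0.26 on the CY262 arrays, and -0.24, -0.78 and -0.39 on the CY251 arrays. All 8 ratios were below 0, and *age-1(mg44)* replicate 1 lay within the range of CY251. The fitted value was -1.11 ± 0.226 in *age-1(mg44)* (adjusted p = 0.0206, limma, n = 2), a 2.16-fold lower level. It was -0.24 ± 0.185 in CY262 (adjusted p = 0.353) and -0.47 ± 0.185 in CY251 (adjusted p = 0.0991, limma, n = 3 each). With the replicate number as a block, the value of -0.47 in CY251 was called (adjusted p = 0.0124, limma), beside 45.6% of all genes. With median centring in place of loess, *hsp-110* stood at -2.01, -1.17 and -1.48 in *age-1(mg44)*, CY262 and CY251, each with an adjusted p under 0.05 in limma. That setting called 59.6%, 62.6% and 66.3% of all genes in the same order.

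Leaving out a single array, which also leaves fewer arrays for the mean, ended calls in CY262 and CY251. Fewer of all genes were called as well. In *age-1(mg44)* it leaves 1 array, so only values are given. Without replicate 2 of this strain *hsp-110* stood at -0.66 and *hsp-4* at -0.97, and *hsp-1* had no value. Without its replicate 1 *hsp-4* stood at -0.85. Without CY262 replicate 2 or replicate 3 none of the 8 was called in CY262, beside 17.5% and 17.1% of all genes. *hsp-1* then stood at -1.30 and -1.35 and *daf-21* at -1.11 and -0.97. Without CY251 replicate 3 only *hsp-4* was called in CY251, beside 20.7% of all genes. *hsp-1* then stood at -1.18 (adjusted p = 0.0577) and *daf-21* at -1.01 (adjusted p = 0.0836, limma). Without CY251 replicate 2 *daf-21* stood at -1.05 (adjusted p = 0.0863, limma), beside 18.3% of all genes called.

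**Figure D2:**
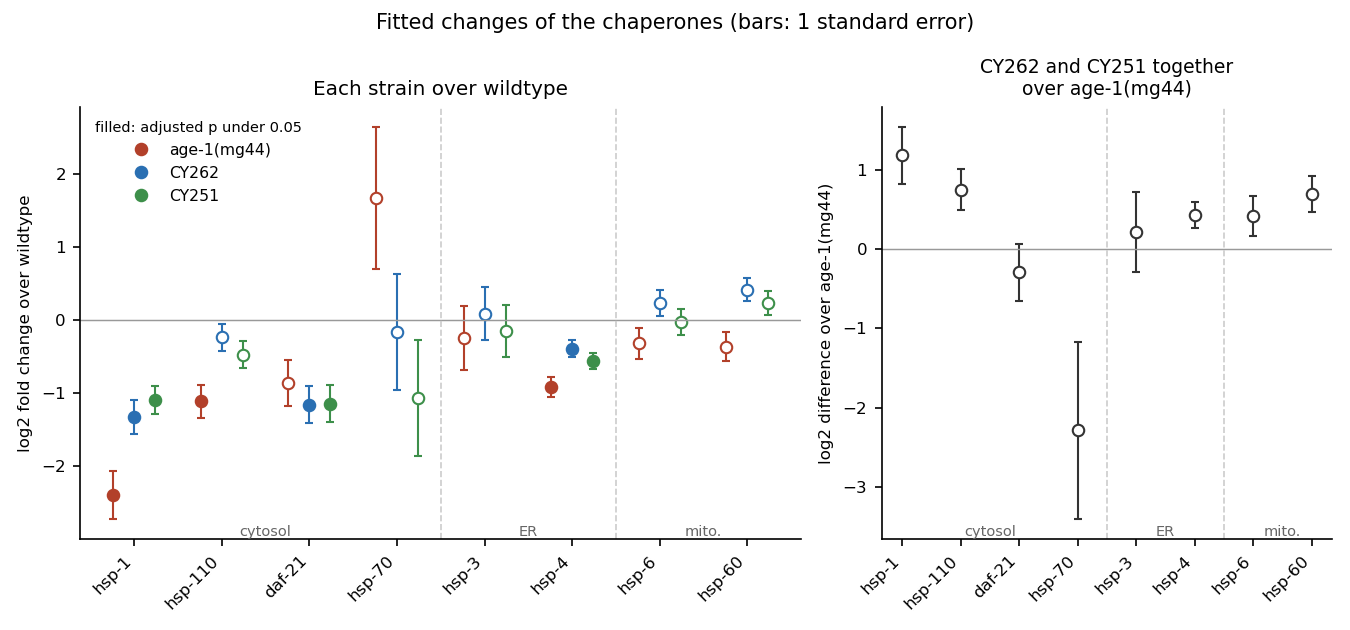
Fitted log2 changes with bars of 1 SE, by compartment: each strain over wildtype (left) and CY262 and CY251 together over *age-1(mg44)* (right). Filled points have an adjusted p under 0.05. *hsp-4* is filled in all 3 strains at -0.91, -0.39 and -0.56, and no point on the right is filled.

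*hsp-70* (C12C8.1), the heat-inducible cytosolic HSP70, varied the most among the 8. Its ratio was 0.31 and 3.04 on the *age-1(mg44)* arrays, -0.52, -1.39 and 1.42 on the CY262 arrays, and -2.48, 0.51 and -1.23 on the CY251 arrays. The signs differed within CY262 and within CY251. limma gave 1.67 ± 0.972 in *age-1(mg44)* (adjusted p = 0.272, n = 2), -0.16 ± 0.794 in CY262 (adjusted p = 0.889, n = 3) and -1.07 ± 0.794 in CY251 (adjusted p = 0.35, n = 3). Without *age-1(mg44)* replicate 2 the first was 0.31, and without its replicate 1 it was 3.04.

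Both channels took part in this spread. The strain channel level of *hsp-70* was 10.26 and 11.59 on the *age-1(mg44)* arrays, 9.41, 7.26 and 9.97 on the CY262 arrays and 7.64, 9.18 and 7.51 on the CY251 arrays. The wildtype channel level on the same arrays was 9.96 and 8.54, then 9.93, 8.65 and 8.55, then 10.12, 8.67 and 8.74. Both *age-1(mg44)* strain levels thus lay above all 6 of the restored strains, and the wildtype level was high on the 3 replicate 1 arrays. The ratio of 0.31 on *age-1(mg44)* replicate 1 stood over a wildtype level of 9.96, and the ratio of 3.04 on its replicate 2 over one of 8.54.

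Other heat-inducible genes shared the sign of *hsp-70* on several arrays, but not on all. The list held 9 genes, of which 6 had a probe: *hsp-70*, 4 *hsp-16* genes, which encode small heat shock proteins that hold unfolded proteins without ATP, and the HSP70 gene *F44E5.4*. Several of these have near-identical copies that the same probe may read. None of the 6 was called in any strain. Their mean ratio was 0.02 and 4.02 on the *age-1(mg44)* arrays, -0.77, -0.67 and 1.30 on the CY262 arrays and -2.67, 1.42 and -1.12 on the CY251 arrays. On *age-1(mg44)* replicate 2 the 4 *hsp-16* genes stood between 4.53 and 5.35, above *hsp-70* at 3.04 and *F44E5.4* at 1.19. All 6 were above 0 on that array, on CY262 replicate 3 and on CY251 replicate 2, and all 6 were below 0 on CY251 replicates 1 and 3. The signs were mixed on the other arrays. On *age-1(mg44)* replicate 1 *F44E5.4* stood at -0.78 and *hsp-16.2* at 0.90. On CY262 replicate 2 *hsp-70* stood at -1.39 and *hsp-16.48* at 0.09.

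**Figure D3:**
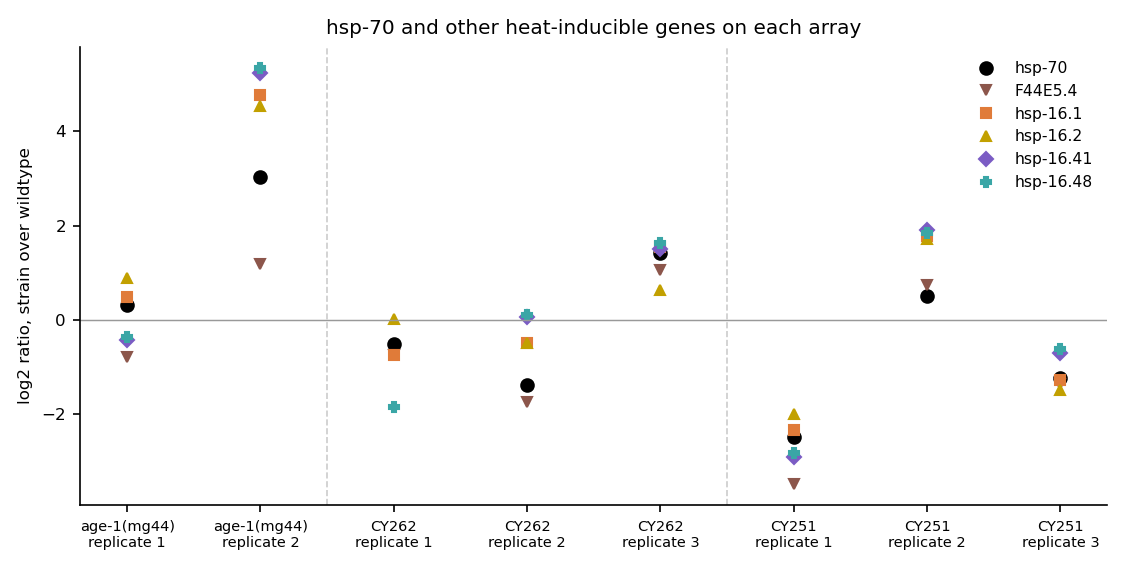
Log2 ratio of strain over wildtype (vertical axis) of *hsp-70* and 5 other heat-inducible genes on each array. The 6 genes share a sign on some arrays and have mixed signs on others, and *age-1(mg44)* replicate 2 stands highest, with *hsp-16.48* at 5.35 and *hsp-70* at 3.04.

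In the ER, *hsp-4* fell in all 3 strains, and *hsp-3* was called in none. Both encode BiP, the HSP70 of the ER, and *hsp-4* is the copy that ER stress induces. The ratio of *hsp-4* was -0.97 and -0.85 on the *age-1(mg44)* arrays, -0.47, -0.18 and -0.52 on the CY262 arrays, and -0.46, -0.86 and -0.36 on the CY251 arrays. All 8 values were below 0, and those of *age-1(mg44)* and CY251 met at -0.85 and -0.86. The fitted values were -0.91 ± 0.138 in *age-1(mg44)*, a 1.88-fold lower level (adjusted p = 0.00881, limma, n = 2), -0.39 ± 0.113 in CY262 (adjusted p = 0.04, n = 3) and -0.56 ± 0.113 in CY251 (adjusted p = 0.0113, n = 3). The call in CY262 was the weakest, and it ended with the replicate number as a block (adjusted p = 0.0614, limma). It also ended without either *age-1(mg44)* array (adjusted p = 0.0624 both times) and without CY251 replicate 1 (adjusted p = 0.057, limma), arrays that enter it only through the shared estimate of the spread. With median centring *hsp-4* stood at -1.80, -1.32 and -1.56 in *age-1(mg44)*, CY262 and CY251.

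The ratio of *hsp-3*, the constitutive BiP, was -0.74 and 0.25 on the *age-1(mg44)* arrays, -0.54, 0.23 and 0.58 on the CY262 arrays and -1.08, 0.13 and 0.49 on the CY251 arrays. It was below 0 on the 3 replicate 1 arrays and above 0 on the other 5. The fitted values were -0.24 ± 0.439, 0.09 ± 0.358 and -0.15 ± 0.358 in *age-1(mg44)*, CY262 and CY251, with adjusted p of 0.732, 0.864 and 0.782 (limma).

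Neither mitochondrial chaperone passed the threshold in any strain in this fit. *hsp-60* encodes the mitochondrial chaperonin. Its ratio was 0.09 and -0.82 on the *age-1(mg44)* arrays, 0.41, 0.53 and 0.31 on the CY262 arrays and 0.39, 0.24 and 0.07 on the CY251 arrays. All 6 ratios of the restored strains were above 0, and the *age-1(mg44)* arrays had opposite signs. The fitted values were -0.37 ± 0.199 in *age-1(mg44)* (adjusted p = 0.243, n = 2), 0.42 ± 0.163 in CY262 (adjusted p = 0.0921, n = 3) and 0.24 ± 0.163 in CY251 (adjusted p = 0.316, limma, n = 3). The sign in the restored strains depended on the scaling. Median centring gave CY262 -0.46 and CY251 -0.72 (adjusted p = 0.0479, limma), the latter beside 66.3% of all genes called. Division by the array mean gave -0.20 and -0.38. In *age-1(mg44)* *hsp-60* was called with median centring (-1.22, adjusted p = 0.0164, limma), beside 59.6% of all genes. It was also called after division by the array mean (-0.65, adjusted p = 0.0385, limma), beside 76.4%. Without replicate 1, which leaves 1 array in that strain, it stood at -0.82. In CY262 its value of 0.42 was called without either *age-1(mg44)* array (adjusted p = 0.0191 both times, limma), arrays that enter only through the estimate of the spread.

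*hsp-6*, the mitochondrial HSP70, had ratios of 0.17 and -0.81 on the *age-1(mg44)* arrays, 0.46, 0.08 and 0.18 on the CY262 arrays and 0.11, -0.13 and -0.08 on the CY251 arrays. Apart from *age-1(mg44)* replicate 2, all lay within 0.46 of wildtype. In the fit they came to -0.32 ± 0.218, 0.24 ± 0.178 and -0.03 ± 0.178 in *age-1(mg44)*, CY262 and CY251 (adjusted p = 0.345, 0.334 and 0.911, limma).

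The order of the compartments within each array was read with *hsp-70* of the cytosol left out. *hsp-70* was above both mitochondrial ratios on both *age-1(mg44)* arrays, CY262 replicate 3 and CY251 replicate 2, and below both on the other arrays. The order therefore holds for the other cytosolic genes only. On 8 of 8 arrays both mitochondrial ratios were above every measured ratio of *hsp-1*, *hsp-110* and *daf-21*, and with median centring this held on 7 of 8. The mitochondrial mean exceeded the mean of these cytosolic genes on every array, by up to 1.31 on CY262 replicate 2 and CY251 replicate 2. On *age-1(mg44)* replicate 1 and CY262 replicate 1 the cytosolic mean held only 2 genes, without *hsp-1*, and the lowest difference was 0.64, on the first of these. With the *hsp-1* spots kept, all 3 genes entered on each array and the differences ran from 0.74 to 1.31. The mitochondrial mean exceeded the ER mean on 6 of 8 arrays, and the exceptions were *age-1(mg44)* replicate 2 and CY251 replicate 3. Within the ER, *hsp-3* was above *hsp-4* on 6 of 8 arrays, and within the mitochondrion *hsp-6* was above *hsp-60* on 3 of 8, a count that was 8 of 8 with median centring. Since the dyes were not swapped, unequal dye response of these probes cannot be told apart from the order of the compartments, and the ratios of *hsp-1* and *daf-21* also hold the saturated spots named above. Raw strain signals were 453.5 to 721.4 for *hsp-6* but 5298 to 16310 for *hsp-1* and 9749 to 18800 for *daf-21*. Those of *hsp-60* (718.4 to 2057) and *hsp-110* (789.4 to 2215) were alike. The part of signal strength in the order was not tested.

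The wildtype channel itself differed by replicate number for all 8 chaperones. For each of them the wildtype levels of the 5 arrays numbered 2 and 3 did not overlap those of the 3 arrays numbered 1. The share of all genes that separated in this way was not counted, so the split is not given as a trait of the chaperones. *hsp-4* had wildtype levels of 11.58 to 12.10 on arrays 2 and 3 and 10.85 to 11.09 on arrays 1, and *hsp-60* had 10.02 to 10.60 on arrays 2 and 3 and 9.27 to 9.35 on arrays 1. Arrays 2 and 3 were higher for 6 of the 8, by a mean of 1.25 for *hsp-110*, and lower for *hsp-70* and *hsp-3*, with mean differences of -1.37 and -0.72. For *daf-21* the mean difference of 0.75 is capped, since its wildtype spot was saturated on 4 of these 5 arrays, and for *hsp-1* 1 of the 5 was saturated.

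Over all spots, the deviations of wildtype channels with the same number correlated at 0.62 to 0.85 (7 pairs), and those with different numbers at -0.85 to 0.32 (21 pairs). The strain channel of *daf-21* ran only from 13.85 to 14.30 over the 8 arrays, while its wildtype channel ran from 14.52 to at least 15.66, the level of a saturated spot. Whether arrays with one number hold the same wildtype RNA is not stated, and its part in the ratios was not tested.

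**Figure D4:**
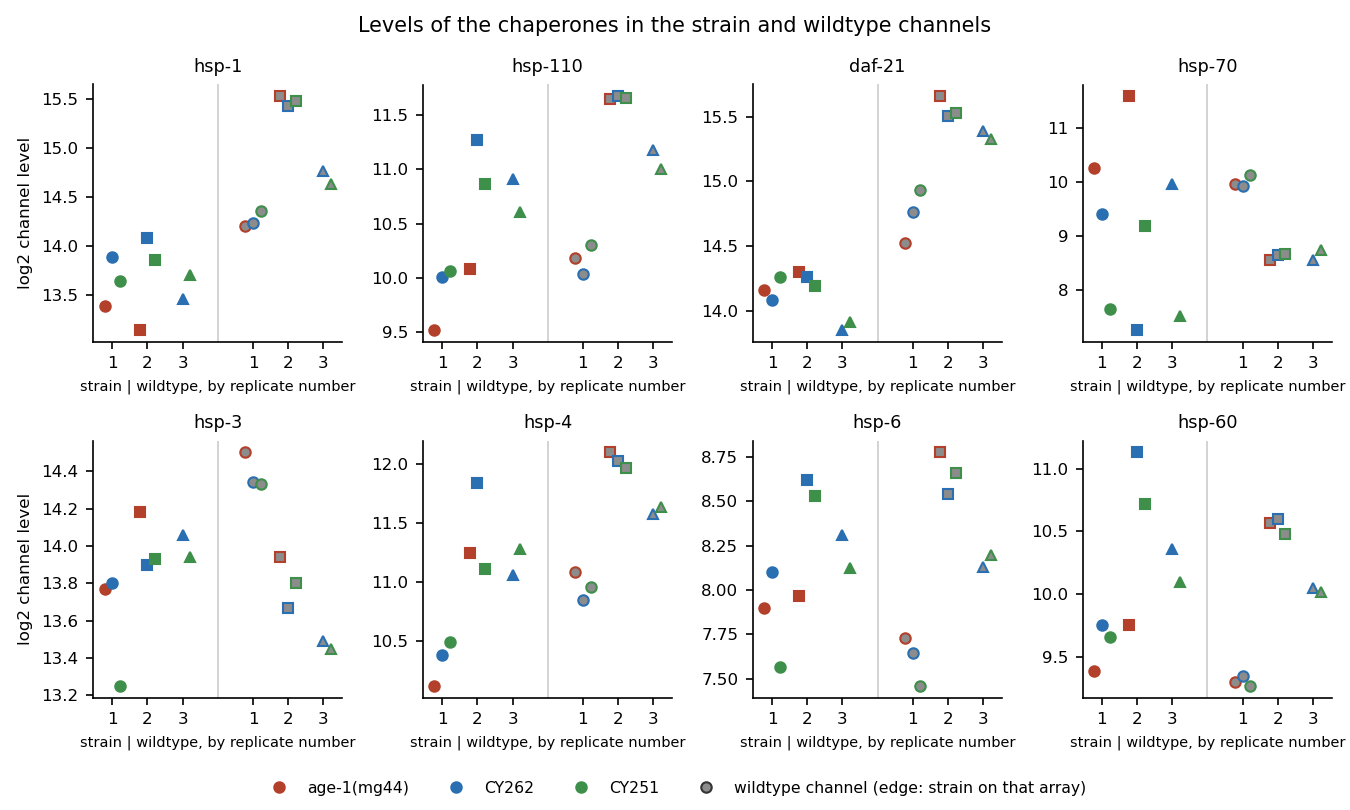
Normalized log2 channel level (vertical axis) of each chaperone on each array, by replicate number, with the strain channel on the left of each panel and the wildtype channel on the right. Wildtype levels with the same number lie close together, as for *hsp-70* at 9.93 to 10.12 on arrays numbered 1 and 8.54 to 8.74 on arrays numbered 2 and 3, while its strain levels run from 7.26 to 11.59.

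Restoring *age-1* in either tissue was compared with the mutant itself, first for CY262 and CY251 together. For every chaperone but *hsp-1*, which has unequal numbers of spots, no assignment of the arrays changes this difference. None of the 8 was called (limma, adjusted p of 0.535 to 0.941), beside 0.0265% of all genes. At an unadjusted p under 0.05 there were 4 of the 8, beside 8.15% of all genes, each of them less negative or more positive in the restored strains. *hsp-1* differed by 1.18 ± 0.364, *hsp-110* by 0.75 ± 0.261, *hsp-60* by 0.69 ± 0.23 and *hsp-4* by 0.43 ± 0.16 (adjusted p = 0.562, 0.562, 0.535 and 0.574, limma). With the outlier spots kept, the value of *hsp-1* was 0.56 ± 0.492, and *hsp-1* was no longer among these (unadjusted p = 0.294, limma). With the assignment of the file names its value was 1.16 ± 0.279 (adjusted p = 0.275, limma). Without *age-1(mg44)* replicate 2, *hsp-110* differed by 0.30, *hsp-60* by 0.24 and *hsp-4* by 0.49, and *hsp-1* had no value. Without *age-1(mg44)* replicate 1, the differences were 1.20 for *hsp-110*, 1.15 for *hsp-60*, 0.38 for *hsp-4* and 1.18 for *hsp-1*. The other 4 did not reach an unadjusted p of 0.05: *hsp-6* differed by 0.42 ± 0.252, *hsp-3* by 0.21 ± 0.507, *daf-21* by -0.29 ± 0.358 and *hsp-70* by -2.29 ± 1.12.

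Without *age-1(mg44)* replicate 2 the difference of *hsp-70* was -0.92, and without its replicate 1 it was -3.66. On the strain channel alone, a comparison added after the values were seen, *hsp-70* had levels of 7.26 to 9.97 in the 6 arrays of CY262 and CY251 and 10.26 and 11.59 in *age-1(mg44)*, a difference of -2.43 ± 0.784 (adjusted p = 0.227, limma). With the arrays assigned by the deposited file names the same difference had an error of 0.341 and was called (adjusted p = 0.0213, limma), beside 2.02% of all genes. The levels of *hsp-1* did not overlap either, at 13.46 to 14.08 in CY262 and CY251 and 13.14 and 13.38 in *age-1(mg44)*. The channel levels hold the outlier spots, and without them *hsp-1* has only the level of 13.14 in *age-1(mg44)*. These were 2 of the 8 chaperones, and 18.8% of all genes had levels that did not overlap in the same way.

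Taken one at a time, CY262 differed from *age-1(mg44)* in none of the 8, beside 0.0265% of all genes called, and CY251 in none, beside 0.0053%. Both share the 2 *age-1(mg44)* arrays. *hsp-60* differed by 0.79 ± 0.257 in CY262 and 0.60 ± 0.257 in CY251, *hsp-110* by 0.87 ± 0.292 and 0.64 ± 0.292, and *hsp-70* by -1.84 ± 1.25 and -2.74 ± 1.25, each time relative to *age-1(mg44)*. Between CY262 and CY251 none of the 8 was called, beside 0% of all genes, and none had an unadjusted p under 0.05. The differences of CY262 over CY251 ran from -0.23 ± 0.303 for *hsp-1* to 0.90 ± 1.12 for *hsp-70*.

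The order of *hsp-70* between CY262 and CY251 depended on the records. The deposited file names exchange the replicate 2 arrays of these strains. By file name the strain levels of *hsp-70* were 9.41, 9.18 and 9.97 in CY262 and 7.64, 7.26 and 7.51 in CY251, which did not overlap. By the sample records they were 9.41, 7.26 and 9.97 in CY262 and 7.64, 9.18 and 7.51 in CY251, which did. On the arrays at 7.64, 7.26 and 7.51 the raw strain signals of *hsp-70* were 444.6, 486.8 and 437.6. These were below the medians of all gene spots there, 478.9, 575.1 and 475.8, so the levels of these arrays rest on weak spots. On the strain channel alone the difference by file name was 2.05 ± 0.341 (adjusted p = 0.0352, limma), beside 1.52% of all genes, and *hsp-70* was the only chaperone of the 8 called. On the same channel and by file name, CY251 was lower than *age-1(mg44)* by a difference of -3.46 ± 0.381 (adjusted p = 0.00861, limma), beside 3.99% of all genes. By the sample records the difference between CY262 and CY251 was 0.77 ± 0.784 (adjusted p = 0.999), and the ratios over wildtype gave 2.17 ± 0.81 by file name (adjusted p = 0.406, limma). Both the channel and the file names were turned to after the levels had been seen, so these values describe the arrays and decide nothing on the assignment.

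The partners of the chaperones were read from lists for each compartment. Of 23 cytosolic co-chaperone, chaperonin and prefoldin genes with a probe, 1 rose and 3 fell in *age-1(mg44)* against wildtype, with a median of -0.25, which is 4 of 23 called beside the 19.7% of all genes given above. The riser was *dnj-19*, a DNAJ co-chaperone, at 0.59. Those that fell were *cct-7*, a subunit of the cytosolic chaperonin, at -0.64, *dnj-13*, a DNAJ co-chaperone, at -0.54, and *cdc-37*, which brings kinases to HSP90, at -0.39. In CY262 1 rose and 4 fell, beside 32.5% of all genes called, and in CY251 1 rose and 5 fell, beside 31%. *dnj-19* stood at 0.85 and 0.77 and *dnj-13* at -0.59 and -0.77 in CY262 and CY251, all past the threshold.

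In *age-1(mg44)*, 19.7% of all genes were called and 8.01% were called lower. Of 23 ER folding and stress genes, none rose and 5 fell there, with a median of -0.32 (all genes, -0.01). They included the protein disulfide isomerases *pdi-1* at -1.08 and *pdi-3* at -0.95, the ubiquitin ligase gene *sel-11* at -0.49 and *ire-1*, whose product senses unfolded protein in the ER, at -0.57. *pdi-3* also fell in CY262 (-0.66) and CY251 (-0.80). In CY262 2 of the 23 rose and 3 fell, beside 32.5% of all genes called and 14.3% called lower. In CY251 1 rose and 6 fell, beside 31% called and 12.7% called lower. Of 16 genes listed by symbol for mitochondrial folding, 2 rose and 2 fell in *age-1(mg44)*, with a median of -0.16, beside the same 19.7%. The lowest of this list, *trap-1* at -0.94, was not called (adjusted p = 0.0544, limma), and its place in mitochondria was not checked. The protease subunit gene *clpp-1* stood at 0.83 and the import channel gene *timm-23* at 0.79, against *atfs-1*, which encodes the stress factor named above, at -0.60 and the peptide transporter gene *haf-1* at -0.41. In CY262 2 rose and 1 fell, beside 32.5% of all genes called, and in CY251 2 rose and 2 fell, beside 31%. Of 6 further HSP70 and HSP90 family genes, *enpl-1* and *hsp-75* among them, none was called in any strain.

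Among the regulators, *hsf-1* fell in all 3 strains. Its ratio was -0.50 and -1.08 on the *age-1(mg44)* arrays, -0.58, -0.42 and -0.77 on the CY262 arrays and -0.69, -0.81 and -0.76 on the CY251 arrays. The fitted values were -0.79 ± 0.146, -0.59 ± 0.119 and -0.75 ± 0.119 in *age-1(mg44)*, CY262 and CY251 (adjusted p = 0.0153, 0.0125 and 0.00463, limma). *daf-16* stood at -0.08 ± 0.115 in *age-1(mg44)* (adjusted p = 0.644), 0.40 ± 0.0942 in CY262 (adjusted p = 0.0209) and 0.31 ± 0.0942 in CY251 (adjusted p = 0.0468, limma). *xbp-1* stood at -0.02, 0.41 and 0.20 in *age-1(mg44)*, CY262 and CY251, and only the value in CY262 passed the threshold (adjusted p = 0.0404). *atfs-1* stood at -0.60, -0.40 and -0.61, with adjusted p of 0.0451, 0.0581 and 0.0154 (limma). None of the 4 was called between the restored strains together and *age-1(mg44)*.

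Across the 8 arrays the ratios of several chaperones ran together. Pearson's r was 0.93 between *hsp-110* and *hsp-6*, 0.90 between *hsp-110* and *hsp-60* and 0.88 between *hsp-6* and *hsp-60*, across compartments. *hsp-1* and *hsp-110* had an r of 0.93 over the 6 arrays that measured both. *daf-21* and *hsp-3* ran against each other, at -0.93, and *hsp-1* and *hsp-70* at -0.88 over 6 arrays. These are descriptions of arrays that share strains and wildtype levels by replicate number. Among 14618 genes well above background on all arrays, those most like *hsp-70* were *cyp-33C8* (r of 0.98), *semo-1* (0.97) and *dct-19* (0.97). The most alike to *hsp-60* were *har-1*, *arx-2* and *map-2* (0.981 to 0.985), and to *hsp-110* they were *Y57G11A.3* (0.98), *glo-4* (0.98) and *atp-1* (0.97). For *daf-21* they were *fut-3*, *pcs-1* and *mina-1* (0.99 each), for *hsp-3* *ZC443.4*, *exc-5* and *F38B7.3* (0.979 to 0.987), for *hsp-4* *C01F1.6*, *tbx-33* and *lin-66* (0.962 to 0.966) and for *hsp-6* *hrde-1*, *slc-25A37* and *eif-2A* (0.97 each). With only 6 arrays, *hsp-1* was most like *prg-2*, *W08E12.7* and *osta-2* (0.996 to 0.999).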

How the data were processed

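Per the file headers, the authors made the scanner output with Agilent Feature Extraction A.7.5.1. The deposited intensity values are raw mean signals and local backgrounds of both dyes and a processed signal. The deposited log10 values are ratios of red (wildtype) over green (strain), and their sign was turned. The genome build is not given in the sources used here, so no coordinates are printed.

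In R 4.3.3 with limma 3.58.1, raw signals were corrected by normexp (offset 50) and normalized by loess within each array. Outlier spots were left out, and the brightest probe per gene was kept. One limma fit held all 8 arrays with one mean per strain, with Benjamini-Hochberg adjustment over all genes and a threshold of 0.05. Channel levels come from Aquantile normalization. Names matched RefSeq annotation for 18124 genes, and 564 of 20401 probes had no sequence name. Each channel had 85.3% to 92% of its 22562 spots well above background. The number of arrays limits the precision. The fit was also run on simulated data with independent noise on each array and no missing spots. That run does not cover deviations shared by same-numbered arrays.

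The members and lists were chosen with earlier results of these data known. Named are the 8 chaperones, 4 regulators, the 2 highest and 2 lowest called genes per list in *age-1(mg44)* and the 3 genes most correlated with each chaperone. The other heat-inducible genes, *enpl-1*, *hsp-75* and *trap-1* were named after their values were seen. Alternatives changed the background, normalization, probes, outlier spots, variance model, replicate block, assignment, arrays and test. Those with the strain channel alone, or with block and file names together, were added after the values were seen. The labels' replicate numbers did not meet the condition for pairing. The day of feature extraction had 2 values, one holding only CY262 replicate 2, so the fit without that array is the within-day one.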

Additional observations from a re-analysis of the deposited data

How the results depend on the processing

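Of 710 values of single chaperones under an alternative, 678 kept the sign of the reported value, 30 lost a call and 23 gained one. The number of chaperones called, 3 in each strain against wildtype, was 5 in *age-1(mg44)* and 5 in CY251 with median centring, beside 59.6% and 66.3% of all genes called, and the same with division by the array mean, beside 76.4% and 80.9%. Leaving out one array gave 0 to 3 in CY262, beside 17.1% to 31.5% of all genes, and 1 to 4 in CY251, beside 18.3% to 30.3%. Leaving out an *age-1(mg44)* array leaves 1 in that strain, so no count is given for it. The methods' t-test, which sets the strain channel against the wildtype channel, gave 0, 0 and 1 in *age-1(mg44)*, CY262 and CY251 after Benjamini-Hochberg adjustment, beside 2, 110 and 2261 of all genes, and 0, 1 and 2 before it, beside 3619, 5080 and 5646.

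Blocking on the replicate number left counts within 1.5 times of these, and *daf-21* in *age-1(mg44)* (-1.03, adjusted p = 0.00736) and *hsp-110* in CY251 (-0.47) gained a call while *hsp-4* in CY262 (-0.39) lost it. The numbers were not treated as pairs, because same-numbered arrays deviated together in 6 of 7 pairs only (r of -0.16 to 0.79). The exception was CY262 replicate 2 with CY251 replicate 2 (r of -0.16), the arrays that the file names exchange. Over all genes the block gave 5737, 9038 and 8603 calls in *age-1(mg44)*, CY262 and CY251 against wildtype, and 3711, 6132 and 5854 without it. With the block and the file names together, 5 were called in *age-1(mg44)* and 5 in CY251 against wildtype (42.8% and 50.9% of all genes), 1 in CY262 and CY251 together against *age-1(mg44)* (3.9%), and 2 in CY251 against *age-1(mg44)* (6.19%). The strain channel alone with file names called 1, *hsp-70*, in each of the last 2 comparisons and between CY262 and CY251. The cause of these changes was not tested.

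The sign changed in 32 values, and 31 of them were uncalled on both sides. With median centring these were *hsp-60* in CY251 (-0.72, adjusted p = 0.0479, limma, the exception), and in CY262 *hsp-60* (-0.46), *hsp-6* (-0.048) and *hsp-3* (-0.38), which was also negative with no background correction (-0.066) and after division by the array mean (-0.36). That division also turned *hsp-6* to 0.15 in *age-1(mg44)* and 0.24 in CY251 and *hsp-60* to -0.20 in CY262 and -0.38 in CY251. It moved the median of all genes to 0.56, 0.44 and 0.48 in *age-1(mg44)*, CY262 and CY251, and relative to that median every one of these values is negative. With the replicate block, *hsp-3* was 0.039 in *age-1(mg44)* and -0.070 in the restored strains together against it, and the same with the file names added. With the value table's assignment *hsp-6* in CY251 was 0.12. With the file names, with or without the block, it was 0.036 and *hsp-70* in CY262 was 0.47. On the strain channel alone *hsp-3* was -0.16 in the restored strains together, under both assignments.

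Leaving out 1 *age-1(mg44)* array gave, against wildtype, -0.74 to 0.25 for *hsp-3*, -0.81 to 0.17 for *hsp-6* and -0.82 to 0.086 for *hsp-60*, and for the restored strains together -0.79 to 0.20 for *daf-21*, -0.28 to 0.70 for *hsp-3* and -0.066 to 0.91 for *hsp-6*, with the positive end of *hsp-6* and *hsp-60* against wildtype reached without replicate 2. Leaving out 1 CY262 array gave -0.96 to 0.45 for *hsp-70* (0.013 without replicate 1) and -0.15 to 0.40 for *hsp-3* in CY262. Leaving out 1 CY251 array gave, in CY251, -0.10 to 0.015 for *hsp-6* and a high of 0.31 for *hsp-3*.

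The share of calls that were lower was 40.7%, 44.1% and 41% in *age-1(mg44)*, CY262 and CY251, and 50.8%, 51.2% and 50.7% with median centring or 21.8%, 25% and 25.4% with division by the array mean. Saturated wildtype spots of *daf-21* and *hsp-1* limit their ratios.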
